A study of Mus musculus with 6 samples.

Results

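Histone lysine methyltransferases and demethylases were followed on 6 arrays of purified mouse germ cells. The set held the 46 genes whose symbol begins with Kdm, Kmt, Setd, Suv39h, Ehmt, Nsd or Smyd followed by a digit, or with Setdb, and that had a transcript cluster of their own on the array, with Kdm5d left out. A transcript cluster is the group of probes that is summarised to 1 value. A rule on symbols, set with earlier results of these data known, gave these 46 genes from 19938 with such a cluster. All 46 passed the filter that left 17925 genes for testing. By family they were 29 methyltransferase or SET domain genes and 17 demethylase genes. Suv39h1 had no cluster of its own and was not analysed here.

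The cells came from C57BL/6 mice that were wild type (WT) or carried a knockout of Rnf8 (RNF8-KO, written KO here), an E3 enzyme that attaches ubiquitin to histones, at DNA damage and in meiotic sex chromatin. Pachytene spermatocytes, the cells of mid meiotic prophase, were measured on 2 WT and 2 KO arrays. Round spermatids, the haploid cells formed by meiosis, were measured on 1 WT and 1 KO array. Each fraction was enriched by gravity sedimentation from 3 to 4 males, to over 95% by the submitters' own count of stained nuclei. The sources used here give neither the animals' age nor the removed part of Rnf8. Whether replicate arrays were separate preparations is unstated, so the p-values reflect how far these samples vary, and that variation may be technical only.

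Lysine methylation of histone tails marks active promoters (H3K4), transcribed gene bodies (H3K36), heterochromatin (H3K9), polycomb-silenced genes (H3K27) and compacted chromatin (H4K20). SET domain enzymes write these marks, and demethylases of the amine oxidase and JmjC classes remove them. In the male germ line the marks are rewritten during meiosis, when the X and Y chromosomes are silenced, and again as the spermatid prepares to exchange histones for protamines.

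The cluster that holds Rnf8 also lists Gm28043. Its log2 intensity was 8.51 and 8.86 on the WT and 7.86 and 8.05 on the KO pachytene arrays, and 7.78 on the WT and 7.50 on the KO round spermatid array. Median intensity ran from 197 to 218 over the 6 arrays. The number of arrays limits the precision. The cell types differed in their labelled markers: 6 of 7 pachytene markers fell and 6 of 7 spermatid markers rose in round spermatids. Each fraction also held signal for the other's markers. The pachytene markers summed to 31557 to 35522 on the pachytene arrays and to 20053 and 19225 on the WT and KO spermatid arrays. The spermatid markers summed to 37276 and 35713 on those spermatid arrays. On the pachytene arrays they ran from 19483 on KO array 2 to 24601 on KO array 1. These sums are of linear intensity, so the strongest markers weigh most. On the pachytene arrays those were Ldhc and Acr, which did not pass, at -0.04 and 0.13. The other pachytene markers ran from -0.67 for Sycp1 to -2.91 for Pou5f2. The other spermatid markers ran from 0.62 for Acrv1 to 1.87 for Camk4. Markers of other cells differed between the fractions too. Of the measured Leydig markers 6 of 6 fell, with a summed intensity of 4689 to 6905 on the pachytene arrays and of 1044 and 1277 on the WT and KO spermatid arrays. Of the Sertoli markers 6 of 8 fell, from a sum of 6049 to 7483 to 3255 and 3820. Other markers rose. Dcn, a fibroblast and peritubular proteoglycan, rose by 2.86, the largest rise of all tested genes, and was the 1 of 6 peritubular and vessel markers to pass. Of the macrophage and blood markers 2 of 5 rose, Adgre1 by 0.80 and Lyz2 by 0.59, and of the spermatogonial markers 1 of 7 rose. Over all tested genes, 17.8% passed as higher and 17.1% as lower. Some of these markers were weak. The macrophage marker Csf1r stood at 6.54 to 6.88 on the pachytene arrays, whose lower quartile ran from 6.15 to 6.28. Such values do not show that a cell type was present. The part of other cells in the differences of the methylation genes was not tested.

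Between the cell types, the set was divided, with most of the differences that passed being falls. In round spermatids 17 of the 46 genes were lower and 4 higher than in pachytene spermatocytes (limma with genotype and cell type, Benjamini-Hochberg adjusted p under 0.05 over all tested genes). Over all tested genes, 17.1% passed as lower and 17.8% as higher, 34.9% in either direction, and the set's own shares were 37.0% and 8.70%. Both spermatid arrays lay below the 4 pachytene arrays for 20 of the 46 genes and above them for 11, against 26.4% and 24.1% of all genes. The set's median log2 difference was -0.15, against -0.06 over all tested genes, and its range ran from -1.77 for Kmt2d to 1.52 for Suv39h2. Fewer cells of a type and less RNA per cell cannot be told apart in such bulk samples. Of the 29 methyltransferase or SET domain genes, not all of which write a histone mark, 12 passed as lower and 1 as higher. Of the demethylases 5 of 17 passed as lower and 3 as higher.

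**Figure D1:**
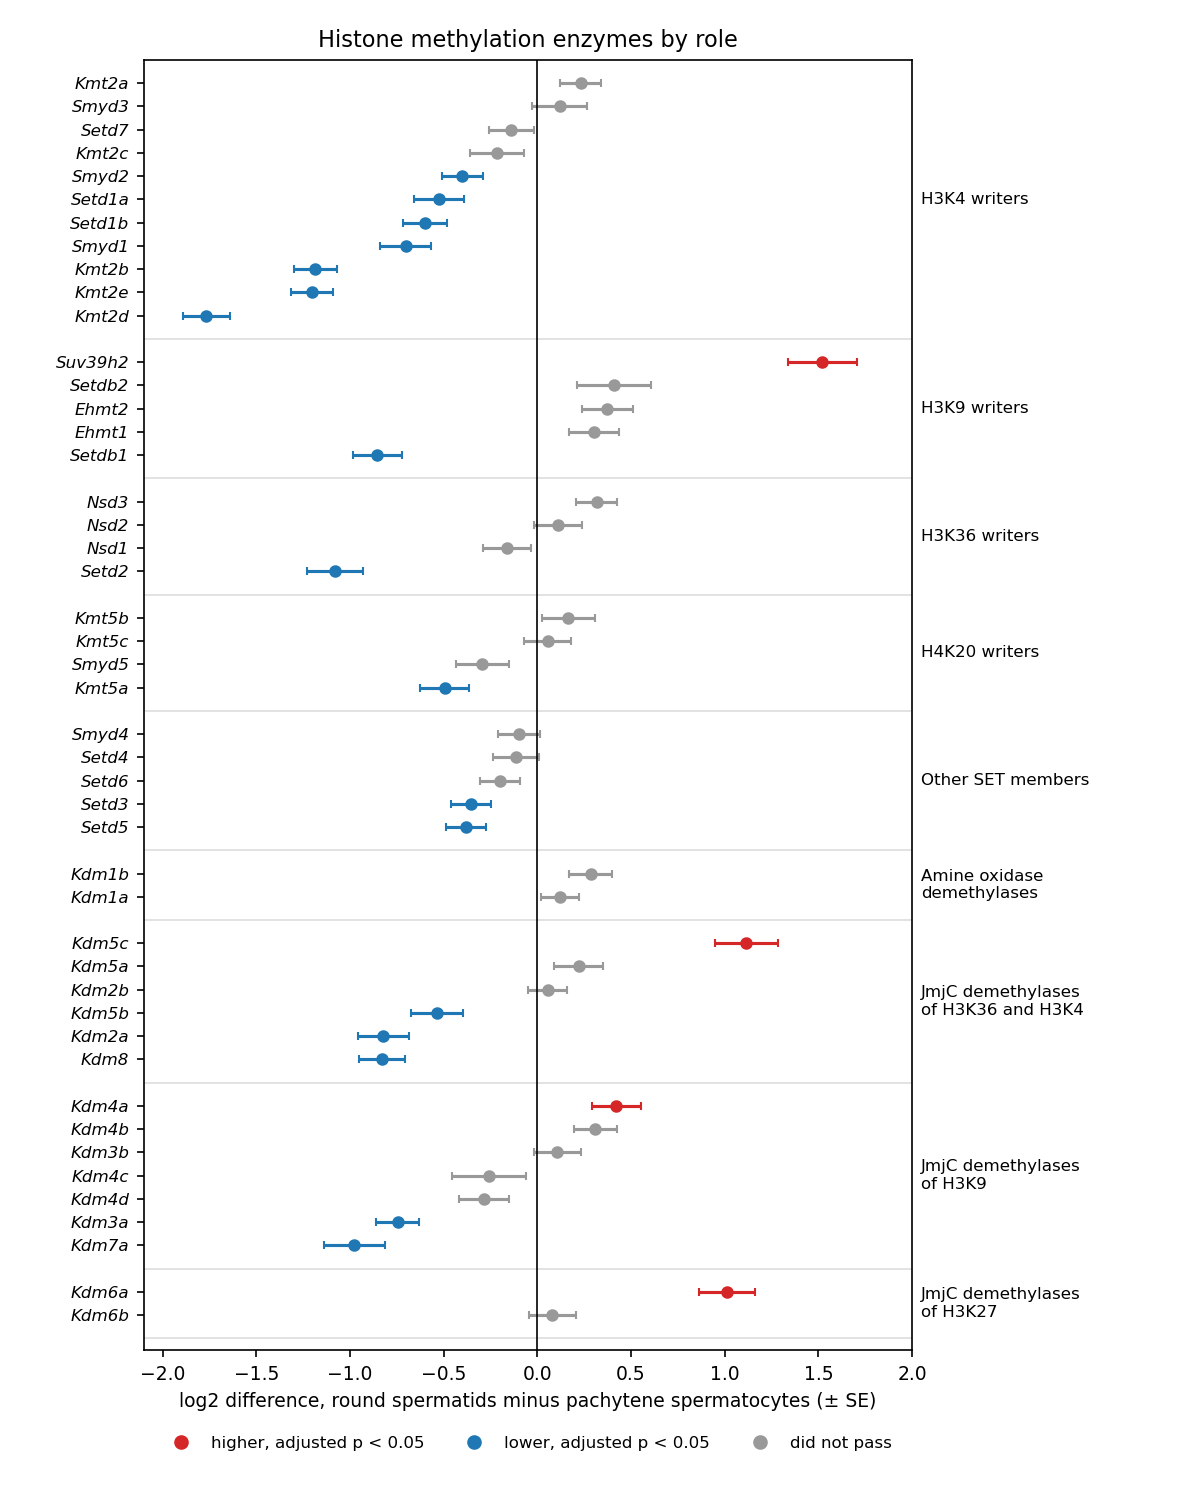
Log2 difference between round spermatids and pachytene spermatocytes for each of the 46 genes, grouped by role, with the standard error of the limma fit. Of 11 genes grouped as H3K4 writers, which include the reader Kmt2e, 7 lie to the left of 0 and passed (63.6%, against 17.1% of all tested genes). Suv39h2, Kdm5c, Kdm6a and Kdm4a are the 4 genes that passed as higher.

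Among the H3K9 writers, Suv39h2 and Setdb1 moved in opposite directions. Suv39h2 is the testis-enriched member of the SUV39 pair, which trimethylates H3K9 in heterochromatin. It stood at log2 8.75 and 9.32 on the WT and 9.30 and 8.95 on the KO pachytene arrays, and at 10.70 on the WT and 10.50 on the KO round spermatid array. Both spermatid arrays lay above the 4 pachytene arrays, although the WT pachytene pair differed more for this gene, by 0.57, than for any other of the 46. Suv39h2 rose by 1.52 (SE 0.19, 2.87-fold, adjusted p = 5.99e-04). Setdb1, the H3K9 methyltransferase that works with KAP1 (Trim28) on retroelements, stood at 10.58 and 10.70 in WT and 10.88 and 10.58 in KO pachytene cells, and at 9.91 and 9.75 in WT and KO spermatids. It fell by 0.86 (SE 0.13, adjusted p = 0.00158), with both spermatid arrays below the pachytene ones.

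The stretches before the start sites of these genes are shown as an illustration. They differ in the cAMP response element, the sequence that CREM, an activator of spermatid genes, binds. Since the pair was picked, its difference in the element tests nothing. RefSeq (GRCm38.p6) gave a start for 34 of the 46 genes, and the 250 bases before each start were searched on both strands. The element sought was TGACGTCA. Its shorter core TGACG, which it holds on either strand, was counted too. So were the CCAAT box and the GC box, GGGCGG. Capitals mark every match, on either strand. Suv39h2 is shown from chr2:3474987-3475236 and Setdb1 from chr3:95357203-95357452, both on the minus strand, written 5′ to 3′ up to the base before the start.
Suv39h2: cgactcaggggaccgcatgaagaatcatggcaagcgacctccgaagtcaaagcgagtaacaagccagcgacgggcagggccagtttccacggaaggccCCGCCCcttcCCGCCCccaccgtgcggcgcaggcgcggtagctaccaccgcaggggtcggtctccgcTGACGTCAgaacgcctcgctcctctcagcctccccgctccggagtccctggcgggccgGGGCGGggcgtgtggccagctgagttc
Setdb1: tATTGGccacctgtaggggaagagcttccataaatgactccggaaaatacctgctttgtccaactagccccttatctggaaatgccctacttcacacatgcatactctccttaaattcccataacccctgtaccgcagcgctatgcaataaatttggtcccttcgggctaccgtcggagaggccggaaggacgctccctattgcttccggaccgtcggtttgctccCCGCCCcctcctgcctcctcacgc
Suv39h2 had TGACGTCA 1 time, beginning 85 bases before the start, and was the 1 gene of the 34 with it. Over all 32851 RefSeq starts, 1.55% had it in the same window. Setdb1 had neither TGACGTCA nor TGACG, and it shared the lack of TGACGTCA with every gene searched except Suv39h2. Kdm4a, Kdm5c and Kdm6a, which also passed as higher, had no TGACGTCA before their starts, all of which lie inside the gene. The table held 45 starts for the 34 genes, of which 32 lie inside the gene and 13 at its outer edge, as the printed ones do. By start, the core TGACG was found for 11 of 45 (24.4%, against 17.8% of all starts). CCAAT was found for 20 (44.4% against 33.8%) and GGGCGG for 30 (66.7% against 32.7%). At the 13 outer starts the counts were 3, 7 and 8, against 16.1%, 34.4% and 26.8% of all 19827 outer starts. These starts were not limited to tested genes. The printed windows of Suv39h2 and Setdb1 held 27 and 13 CG dinucleotides, against a median of 6 over all starts. The part of CG content in the motif shares was not tested. Matches describe letters in the window, not bound sites, and any part of CREM in these differences was not tested.

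The remaining H3K9 writers did not pass. Ehmt2 (G9a), which with its partner Ehmt1 (GLP) places most H3K9 mono- and dimethylation, stood at 10.84 and 10.43 in WT and 10.63 and 10.76 in KO pachytene cells and at 11.01 and 11.07 in spermatids (difference 0.37, SE 0.14, adjusted p = 0.0704 in limma). Both spermatid arrays lay above the pachytene arrays. Ehmt1 had 7.33, 7.27, 7.33 and 7.75 on the same pachytene arrays and 7.62 and 7.82 in spermatids, so its groups overlapped (difference 0.30, adjusted p = 0.132). Setdb2, a relative of Setdb1, was at 0.41 (adjusted p = 0.158), and its arrays are given with the knockout comparison.

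The genes grouped by family as H3K4 writers held the largest fall of the set. Kmt2d (MLL4), which monomethylates H3K4 at enhancers, stood at 9.99 and 10.10 on the WT and 10.30 and 9.98 on the KO pachytene arrays, and at 8.24 and 8.41 on the WT and KO spermatid arrays. It fell by 1.77 (SE 0.12, 3.40-fold, adjusted p = 1.37e-04). Kmt2b (MLL2), which trimethylates H3K4 at promoters, stood at 10.57 and 10.49 in WT and 10.29 and 10.20 in KO pachytene cells and at 9.20 in spermatids of either genotype. It fell by 1.19 (SE 0.11, 2.28-fold, adjusted p = 2.71e-04). Kmt2e (MLL5), a SET protein that reads H3K4 methylation, stood at 10.73 and 10.66 in WT and 10.70 and 10.46 in KO pachytene cells, and at 9.50 and 9.37 in spermatids. It fell by 1.20 (SE 0.11, 2.30-fold, adjusted p = 2.51e-04). For these 3 genes both spermatid arrays lay below the 4 pachytene arrays.

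**Figure D2:**
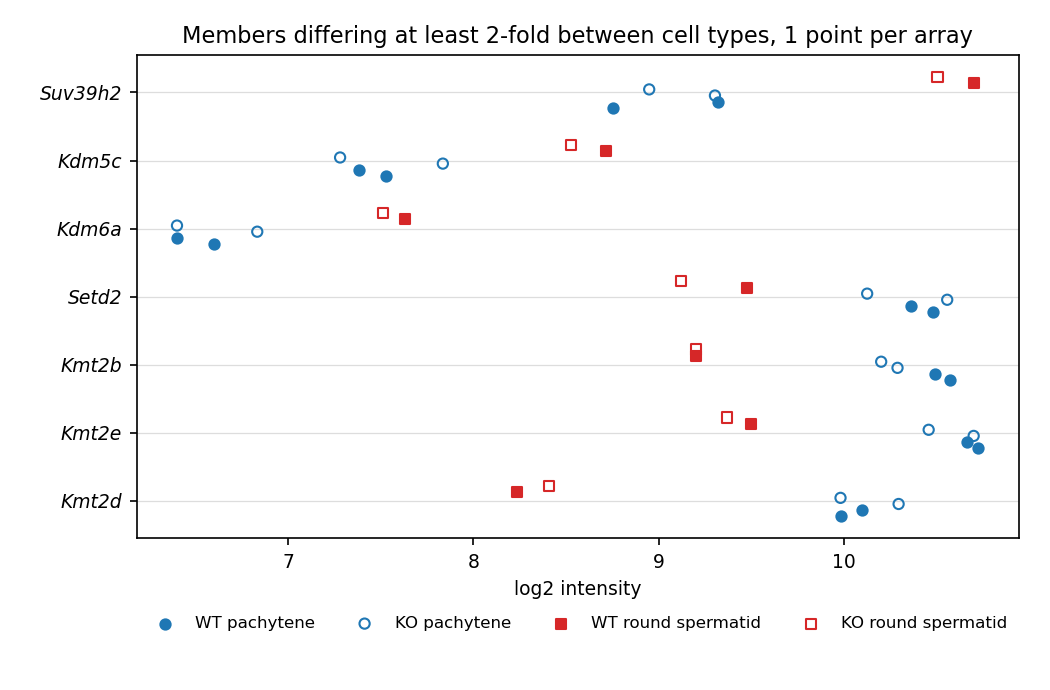
Log2 intensity on each of the 6 arrays for the 7 genes that passed with a difference of at least 1 (log2) between the cell types. Squares are round spermatids, circles pachytene spermatocytes, filled symbols WT and open symbols KO. For each of these genes the squares lie apart from the circles.

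Smaller falls in this group were those of the SET1 enzymes Setd1b and Setd1a, which make most H3K4 trimethylation, at -0.60 and -0.52, of Smyd1, a muscle methyltransferase, at -0.70, and of Smyd2, which also methylates p53, at -0.40. Their adjusted p in limma lay between 0.00463 for Smyd1 and 0.0232 for Smyd2. The other 4 genes did not pass. Kmt2a (MLL1), the relative of Kmt2b, was at 0.23, Kmt2c, the relative of Kmt2d, at -0.22, Smyd3 at 0.12 and Setd7 at -0.14. Of the 5 MLL genes 3 fell, where 17.1% of all tested genes passed as lower. Differences between relatives were not tested.

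In the H3K36 group, Setd2, the enzyme of H3K36 trimethylation in transcribed genes, stood at 10.48 and 10.36 in WT and 10.56 and 10.13 in KO pachytene cells, and at 9.48 and 9.12 in WT and KO spermatids. It fell by 1.08 (SE 0.15, 2.12-fold, adjusted p = 0.0010). The dimethylating enzymes Nsd1, Nsd2 and Nsd3 did not pass, with differences of -0.16, 0.11 and 0.32. Nsd3 came nearest, at 9.80 to 9.93 on the pachytene arrays against 10.26 and 10.10 in spermatids (adjusted p = 0.0578).

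Of the 4 H4K20 writers 1 passed. Kmt5a (SET8), the monomethyltransferase of dividing cells, stood at 10.45 and 10.84 in WT and 10.62 and 10.69 in KO pachytene cells and at 10.15 and 10.16 in spermatids, a fall of 0.50 (SE 0.13, adjusted p = 0.0203). Kmt5b and Kmt5c, which add the next methyl groups, were at 0.17 and 0.06. Smyd5 had 7.89, 8.09, 8.18 and 7.79 in pachytene cells and 7.67 and 7.72 in spermatids (difference -0.29, adjusted p = 0.154), so that it was below on both spermatid arrays without passing. Of the other SET genes, Setd3, an actin histidine methyltransferase, fell by 0.35 and Setd5 by 0.38, while Setd4, Setd6 and Smyd4 lay between -0.20 and -0.10 and did not pass.

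Demethylases moved both ways, and the X-linked members were higher in spermatids. Kdm5c, which removes H3K4 methylation and is X-linked, stood at 7.53 and 7.38 in WT and 7.84 and 7.28 in KO pachytene cells, and at 8.72 and 8.53 in WT and KO spermatids. It rose by 1.12 (SE 0.17, 2.17-fold, adjusted p = 0.00152). Kdm6a (UTX), the X-linked H3K27 demethylase, stood at 6.60 and 6.40 in WT and 6.83 and 6.40 in KO pachytene cells and at 7.63 and 7.51 in spermatids. It rose by 1.01 (SE 0.15, 2.02-fold, adjusted p = 0.00141). These pachytene values lie near the lower quartile of the arrays, 6.15 to 6.28, so the size of the rise is uncertain. The chromosome itself was higher: 40.2% of 624 tested X-linked genes passed as higher in spermatids and 2.24% as lower, so the rise of both members is read against the first share. The autosomal relative of Kdm6a, Kdm6b (JMJD3) stood at 8.74, 8.81, 8.83 and 8.50 in pachytene cells and at 8.80 and 8.81 in spermatids, with a difference of 0.08 (adjusted p = 0.692).

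The other H3K4 and H3K36 demethylases were lower or did not pass. Kdm5b, an autosomal relative of Kdm5c, stood at 11.76 and 11.36 in WT and 11.62 and 11.64 in KO pachytene cells and at 11.12 and 11.00 in spermatids, and fell by 0.54 (adjusted p = 0.0176 in limma). Kdm2a, a CpG island protein that removes H3K36 methylation, stood at 10.53, 10.17, 10.51 and 10.27 in pachytene cells and at 9.55 in both spermatid samples, and fell by 0.82 (SE 0.14, adjusted p = 0.00234). Kdm8 (JMJD5), a JmjC protein with reported H3K36 demethylase activity, fell by 0.83 (SE 0.12, adjusted p = 0.00137). Kdm2b was at 0.06 and Kdm5a at 0.22, and neither passed.

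Among H3K9 demethylases, Kdm3a (JHDM2A), which mouse genetics links to activation of the transition protein and protamine genes, stood at 11.92 and 11.98 in WT and 12.09 and 12.01 in KO pachytene cells. In spermatids it stood at 11.34 in WT and 11.16 in KO, below the 4 pachytene arrays. Kdm3a fell by 0.75 (SE 0.11, 1.68-fold, adjusted p = 0.00152). The transition protein genes Tnp1 and Tnp2 rose on the same arrays by 1.27 and 0.75. Kdm4a, a demethylase of H3K9 and H3K36, had 8.36 to 8.58 in pachytene cells, 9.05 in WT spermatids and 8.72 in KO spermatids, and rose by 0.42 (SE 0.13, adjusted p = 0.0379). Its relatives Kdm4b, Kdm4c and Kdm4d were at 0.31, -0.26 and -0.28 and did not pass. Kdm4d, the testis-enriched form, stood at 12.14 and 11.80 in WT and 11.85 and 12.07 in KO pachytene cells and at 11.65 and 11.71 in spermatids (adjusted p = 0.151), and Kdm3b was at 0.11.

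Kdm7a, a JmjC demethylase of H3K9 and H3K27, gave different answers from its clusters. The cluster of higher mean, used here by rule, had 9.92, 10.31, 10.28 and 9.85 in pachytene cells and 9.20 and 9.03 in spermatids, and fell by 0.98 (SE 0.16, adjusted p = 0.00238). Its other cluster had 8.91, 8.61, 9.06 and 8.42 in pachytene cells and 9.23 and 8.91 in spermatids, a difference of 0.32 (adjusted p = 0.259 in limma over 19585 clusters). With the mean of both clusters Kdm7a was at -0.33 and did not pass (adjusted p = 0.159). The other 4 genes with a pair of clusters had the same sign in both. For Kmt2d the clusters gave -1.77 and -1.78, for Setd2 -1.08 and -0.98, for Setd1b -0.60 and -0.32 and for Setd3 -0.35 and -0.13, and the second values of Setd1b and Setd3 did not pass (adjusted p = 0.0508 and 0.460).

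**Figure D3:**
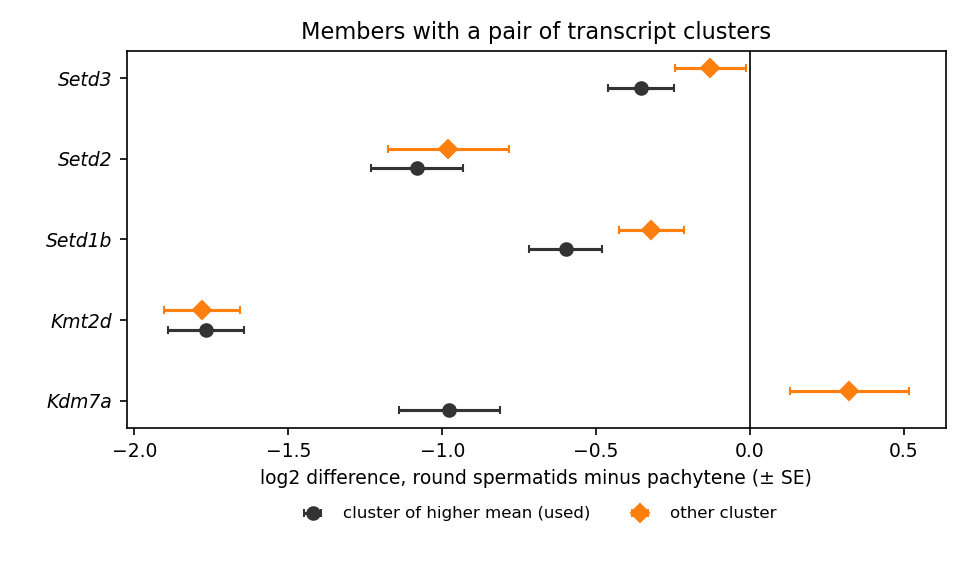
Log2 difference between the cell types, with standard error, for the 5 genes with a pair of transcript clusters. The clusters of Kdm7a lie on either side of 0, at -0.98 and 0.32, and those of Kmt2d coincide.

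The amine oxidases did not pass. Kdm1a (LSD1), which removes H3K4 methylation, stood at 11.36 and 11.37 in WT and 11.43 and 11.52 in KO pachytene cells and at 11.52 and 11.56 in spermatids. Both spermatid values were the higher ones, by a difference of only 0.12 (SE 0.10, adjusted p = 0.432). Kdm1b was at 0.29 (adjusted p = 0.0971).

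Each genotype gave much the same picture. The spermatid minus pachytene difference had the same sign in WT and KO, which share no arrays, for 43 of the 46 genes (93.5%, against 82.3% of all tested genes). Pearson's r between the genotypes was 0.96 and Spearman's rho 0.94 across the 46 genes, against 0.94 and 0.88 across all tested genes. These are descriptions across genes, which are not independent replicates. Kmt2d was at -1.81 in WT and -1.73 in KO, and Suv39h2 at 1.66 and 1.38. Kdm3b, Kmt5c and Smyd4 were the genes of opposite sign, and none of them passed. The counts by genotype below rest on 1 spermatid array each. They share a spread taken from the pachytene pairs of both genotypes, so they are not independent of each other. In WT alone 8 genes passed as lower, against 8.45% of all genes, and 3 as higher, against 11.5%. In KO alone the counts were also 8 and 3, against 7.18% and 8.36%.

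**Figure D4:**
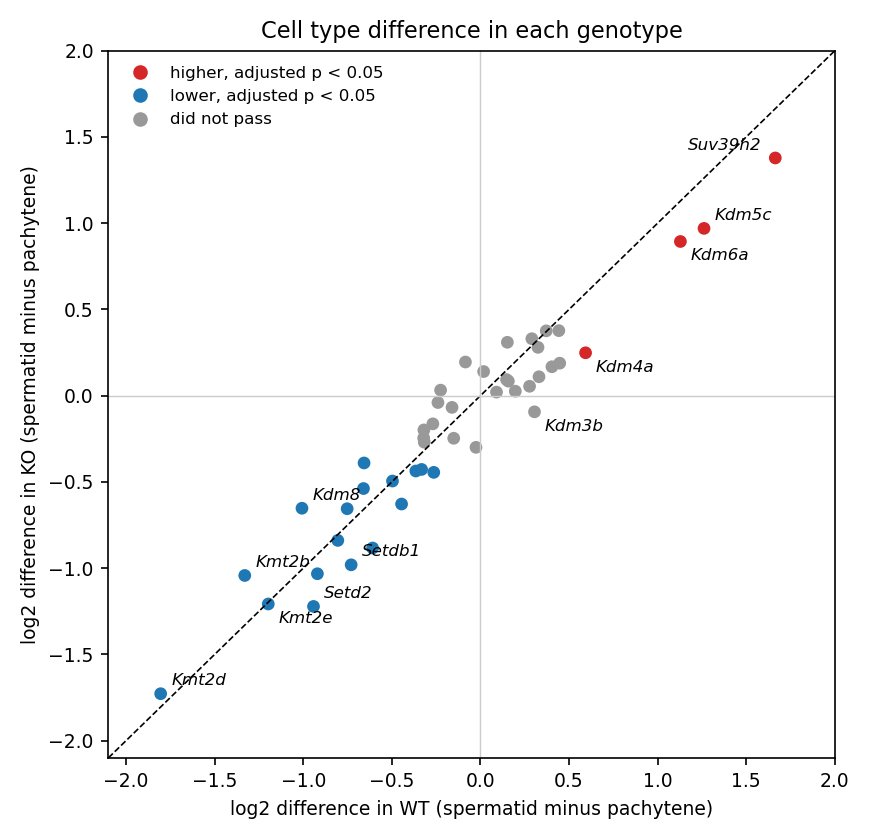
Log2 difference between round spermatids and pachytene spermatocytes in KO against that in WT, 1 point per gene for 46 genes, with the line of equality dashed. Kmt2d lies at -1.81 and -1.73 and Suv39h2 at 1.66 and 1.38, near the line.

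The calls did not rest equally on the arrays. Kmt2d, Kmt2b, Kmt2e, Setd2, Setdb1, Kdm2a, Suv39h2, Kdm5c and Kdm6a passed under each of the 16 alternatives run, single omitted arrays included. Omitting the spermatid array of 1 genotype gives the same contrast as the other genotype alone, so these are not separate checks. Without the KO round spermatid array 8 genes passed as lower, and likewise 8 without the WT one. Kdm3a was lost without the KO spermatid array (-0.61, adjusted p = 0.0529 in limma) and Kdm8 without the WT one (-0.65, adjusted p = 0.0535). Smyd1, Setd1b, Setd1a, Smyd2, Kmt5a, Kdm5b, Setd3, Setd5 and Kdm4a were lost without either. Kdm4a, at 0.25 without the WT and 0.59 without the KO spermatid array, was also lost without either WT pachytene array or KO pachytene array 2, as was Setd3 (-0.34, -0.39 and -0.35). Setd5 was lost without either WT pachytene array (-0.36 and -0.41), Kdm5b without WT array 1 (-0.46), and Kmt5a, Setd1a and Smyd2 without WT array 2 (-0.41, -0.47 and -0.37). Without KO pachytene array 1, 8 genes passed as higher, adding Setdb2 (0.58), Nsd3 (0.33), Kdm5a (0.30) and Kdm4b (0.29). Over all 17925 tested genes, 3803 passed as higher and 5046 as lower without that array, against 3191 and 3064 with every array kept.

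Loss of Rnf8 gave no gene of the set that passed. In pachytene spermatocytes 0 of 46 passed for KO against WT in limma, and 1 (Setd3) had an unadjusted p under 0.05, against 0% and 2.40% of all tested genes. In simulated data with this layout of arrays, the comparison recovered 32 of 100 differences of 1 on the log2 scale. Differences of that size or smaller can therefore be missed. The set's median difference was 0.05, with a range from -0.57 for Setdb2 to 0.35 for Setd3, and 28 of 46 lay above WT (60.9%, against 59.9% of all tested genes). Setdb2 stood at 8.05 and 7.96 in WT and 7.81 and 7.05 in KO pachytene cells, and at 8.44 in the WT and 7.81 in the KO spermatid array. Within each cell type KO was below WT, by a mean of 0.57 in pachytene cells (SE 0.25, limma adjusted p = 1.000). KO pachytene array 2 carried much of it: without that array the difference was -0.19, and without KO array 1 it was -0.95. The KO pachytene pair differed by 0.77 for Setdb2, the widest gap of the 46 genes.

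Setd3 stood at 10.72 and 10.60 in WT and 11.01 and 10.99 in KO pachytene cells, with KO 0.35 above WT (SE 0.15, unadjusted p = 0.0498, limma adjusted p = 1.000). In spermatids it was at 10.39 in WT and 10.56 in KO. The other cluster of Setd3 had a pachytene difference of 0.14. Next above WT were Kdm3b at 0.25 and Ehmt1 at 0.24, and next below were Kmt2b at -0.29 and Setd1a at -0.23. Ehmt1 rested on KO array 2, and was at 0.03 without it. Kdm3b stood at 8.84 and 8.85 in WT against 9.15 and 9.03 in KO, and Kmt2b's KO arrays were likewise apart from its WT arrays, on the lower side. Setd1a stood at 10.02 and 10.19 in WT and 10.03 and 9.72 in KO, so its groups overlapped.

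**Figure D5:**
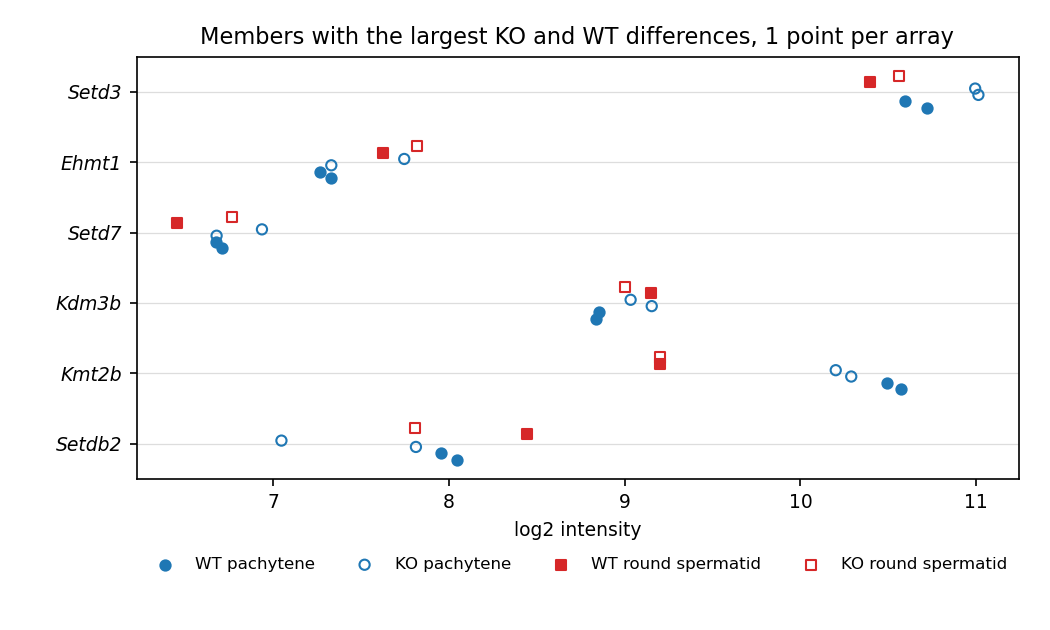
Log2 intensity on each of the 6 arrays for 6 genes among the largest differences between KO and WT. Open symbols are KO and filled symbols WT, with circles for pachytene spermatocytes and squares for round spermatids; the KO symbols of Setdb2 lie to the left of the WT symbols of the same shape.

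In round spermatids, with 1 array per genotype and so no replicate check, 0 of the 46 genes differed at least 2-fold, against 0.385% of all tested genes. At 1.5-fold 1 gene did, against 1.91%: Setdb2, lower in KO by 0.64 on the log2 scale. After it, the lowest in KO were Setd2 at -0.36 and Kdm4a at -0.33, and the highest Setd7 at 0.32, Kmt5c at 0.24 and Smyd4 at 0.24. Setd7 stood at 6.45 in the WT and 6.77 in the KO spermatid array, and at 6.71, 6.67, 6.68 and 6.94 on the pachytene arrays in the order used above. Kmt5c stood at 9.49 and 9.73 in WT and KO spermatids, a gap no wider than that between its WT pachytene arrays, 9.44 and 9.71. Smyd4 stood at 7.43 and 7.67, with pachytene values of 7.60 to 7.67. The median was -0.03, and 21 of 46 lay above WT (45.7%, against 59.1% of all tested genes). The replicate pachytene pairs give a measure of scale: 0 of the 46 genes differed 1.5-fold between the WT arrays and 2 between the KO arrays. X-linked Kdm5c and Kdm6a were at -0.19 and -0.12, while 81 of 624 X-linked genes differed at least 1.5-fold.

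Over both cell types, 0 of 46 passed for KO against WT (limma, smallest adjusted p = 0.824, for Setdb2), where 0% of all genes passed. At an unadjusted p under 0.05 there were 2 of 46, Setdb2 at -0.59 (SE 0.19) and Setd3 at 0.29 (SE 0.10), a share of 4.35% against 5.46% of all genes. For both genes KO lay on 1 side of WT on every array, compared within a cell type. Ehmt1 at 0.23 and Setd7 at 0.18 were the next above WT, and Kmt2b at -0.19 and Setd2 at -0.17 the next below. Markers of other cells were uneven on the same arrays. Above WT in pachytene cells and in spermatids were 7 and 8 of 8 Sertoli, 7 and 6 of 7 spermatogonial, and 5 and 6 of 6 peritubular and vessel markers. So were 1 and 4 of 6 Leydig, and 2 and 2 of 5 macrophage and blood markers. The shares of all tested genes were 59.9% and 59.1%. Of the germ cell markers, 4 and 3 of 7 pachytene and 5 and 2 of 7 spermatid markers lay above WT. The part of other cells in these differences was not tested.

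The interaction, which asks whether the KO difference in spermatids departs from that in pachytene cells, passed for 0 of 46 genes in limma, with 0 at an unadjusted p under 0.05 against 0.725% of all genes and 0% of all genes passing. The most positive values were Kdm8 at 0.35 (SE 0.26), Kmt2b at 0.29 and Kmt5c at 0.28, and the most negative Kdm3b at -0.40 (SE 0.25), Kdm4a at -0.34 and Kdm5c at -0.29. Kdm8 stood at 8.72 on both WT and at 8.49 and 8.65 on the KO pachytene arrays, and at 7.71 and 7.92 in WT and KO spermatids, so that KO was below WT in 1 cell type and above in the other. With lone spermatid arrays, each is assumed to vary like the pachytene pairs.

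Partners and other histone methylation genes, from lists outside the symbol rule, were set beside the members, to be read against the 17.1% of all tested genes that passed as lower and the 17.8% as higher. Of 16 COMPASS subunits, which assemble with the SET1 and MLL enzymes, 9 fell (56.2%) and 3 rose (18.8%) in round spermatids, with a median of -0.38. Bod1l fell by 1.33, Wdr5b by 1.05 and Wdr82 by 0.84, while X-linked Hcfc1 rose by 0.74, the MLL partner Paxip1 by 0.67 and Dpy30 by 0.63 (highest adjusted p of the 6 in limma, 0.00852). Wdr5, a core subunit, was at 0.18 and did not pass.

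Of 10 other lysine methyltransferase genes measured, 2 fell and 2 rose, near the shares of all genes. These were Ezh1 by 0.66 and Setmar by 0.61 downward, and Prdm9, the recombination site H3K4 methyltransferase, by 0.45 and Prdm16 by 0.33 upward. Ezh2, the main H3K27 methyltransferase, was at -0.11. Of 8 other JmjC proteins 2 fell and 3 rose. Phf2, a JmjC protein that binds H3K4 trimethylation, stood at 11.16 to 11.23 in pachytene cells and at 9.03 in WT and 9.35 in KO spermatids, and fell by 2.00 (SE 0.11, adjusted p = 8.44e-05), more than any of the 46. Its X-linked relative Phf8 rose by 1.51, Y-linked Uty, the relative of Kdm6a, by 1.39 and Jarid2 by 0.60, and Jmjd1c fell by 0.74. Whether probes of Kdm6a and Uty cross-react was not tested.

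Of 9 arginine methyltransferases 3 fell (33.3%) and 1 rose (11.1%), against 17.1% and 17.8% of all genes. These were Prmt5 by 1.27, Prmt6 by 1.03 and Prmt1 by 0.52 downward and Carm1 by 0.79 upward. H3K9 readers and co-repressors had 4 of 8 lower and 1 higher. The heterochromatin protein genes Cbx1 (HP1 beta) and Cbx5 (HP1 alpha) fell by 1.33 and 1.00 and Zfp644 by 0.46, while Cdyl, a chromodomain protein, rose by 1.37. Trim28, the Setdb1 partner, was at -0.36 and did not pass (adjusted p = 0.0910 in limma). Of 7 LSD1 partners 4 fell (57.1%), led by Phf21a at -0.90, Glyr1 at -0.67 and Rcor3 at -0.41, and 0 rose, while Kdm1a itself did not pass. In these 6 lists 0 genes passed for KO against WT in either limma fit, or for the interaction, and 0 had an unadjusted p under 0.05.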

How the data were processed

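The authors deposited linear intensity values from Affymetrix gene arrays. Per the submitters' processing notes, Expression Console 1.1 and RMA produced them. Build: not given in the sources used here. Log2 of the intensity was taken. The platform annotation names 1 gene for 21789 of 35556 clusters, and the cluster of highest mean stood for a gene. A gene was tested where any array reached log2 6. Chromosomes come from RefSeq (GRCm38.p6).

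Groups follow the sample titles. Limma 3.58.1 in R 4.3.3 (lmFit, eBayes, Benjamini-Hochberg, threshold 0.05) was fitted with genotype and cell type (3 residual degrees of freedom) and with 4 groups (2, all from pachytene arrays). KO against WT in round spermatids has 1 array each and no test. Scripts were tested on simulated data. Every member may be named. Array values are given for members passing with a log2 difference of at least 1, the knockout comparisons' 3 largest differences either way, X-linked members and some preset genes. Kdm2a, Kdm5b, Kdm7a, Nsd3, Phf2, Ezh2, Wdr5 and Trim28 were added after their values were seen. The members and lists were chosen with earlier results of these data known. Alternatives covered filter, normalization, pseudocount, prior, cluster choice, replicate block and omitted arrays.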

Additional observations from a re-analysis of the deposited data

How the results depend on the processing

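Of the 21 calls between the cell types 9 passed under every alternative run, and 12 were lost under at least 1. Omitting either spermatid array kept 11 of the 21. With no filter, a filter at log2 7, a second quantile normalization, log2 of the value plus 16, or a trended and robust prior, the 21 genes that passed did so again, and 4 to 6 passed as higher. With the mean of clusters 19 of the 21 remained, without Kdm7a and Setd3. Leaving out 1 pachytene array at a time gave 3 to 8 genes higher and 12 to 17 lower. Over all 17925 tested genes, 2605 to 3803 then passed as higher and 2328 to 5046 as lower. None of the 21 changed sign under any alternative run. Genes that did not pass and changed sign were Kdm3b and Smyd4, at -0.094 and 0.032 without the WT spermatid array or in KO alone, and Kmt5c, at -0.085 without the KO one or in WT alone. Over omitted arrays they ranged from -0.094 to 0.31, from -0.23 to 0.032 and from -0.085 to 0.20.

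Deviations of same-numbered pachytene arrays correlated at -0.23 across genes, so same-numbered arrays gave no sign of pairing. The negative sign means that opposite-numbered arrays varied together to that extent. Adding the replicate block, 5 genes passed as higher and 12 as lower in spermatids, against 2808 and 2567 of all 17925 tested genes. For KO against WT or the interaction, 0 of the 46 passed. Over all genes, 10 passed as higher and 33 as lower in KO pachytene cells, where the main fit passed 0. The block ended the calls of Kdm5b, Setd1a, Setd3, Setd5 and Smyd2 and added Setdb2 (0.62, limma adjusted p = 0.0319). The crossed pairing was tried after seeing the data, and 5 and 17 of the 46 passed between the cell types and 0 in the other comparisons. Over all genes, 3447 and 3424 passed between the cell types. For KO against WT in pachytene cells, 18 genes passed as higher and 70 as lower. At 1.5-fold instead of 2-fold, 1 gene (Setdb2) was lower in the KO spermatid array, and the 4-group limma fit passed 0 there.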
